A study of Mus musculus with 24 samples.

Results

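The comparison set astrocytes of the olfactory bulb beside astrocytes of the brainstem in control mice. It used the 6 of 24 libraries whose titles name an olfactory bulb or a brainstem control, 3 in each group. The study profiled sorted astrocytes from olfactory bulb, hippocampus, cortex and brainstem in control mice and in mice labelled as knockouts of NFIA, a nuclear factor I transcription factor. Both groups compared here came from C57BL6 mice of 20 weeks with the genotype NFIAfl/fl; Aldh1l1-GFP, so every control carried the floxed Nfia alleles and the reporter and lacked the Aldh1l1-CreER recombinase of the mice labelled knockout. The reporter places green fluorescent protein under regulatory sequence of Aldh1l1, a folate enzyme gene active in astrocytes, and other cells with that activity would carry it too. Cells were dissociated and sorted by fluorescence, and libraries were made from 5 ng of RNA. The labels give no gate and tie no library to an animal, so p-values measure the spread between libraries, which may be partly technical.

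Astrocytes support neurons throughout the brain by clearing glutamate and potassium, supplying metabolites and releasing factors that act on synapses. They descend from progenitors of their own region, and many keep transcription factors of that origin into adulthood. The olfactory bulb belongs to the forebrain and receives new interneurons throughout life, whereas the brainstem is formed by the midbrain and hindbrain, where Hox and Iroquois homeobox genes pattern the embryo.

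Recovered reads were 4503269, 6080539 and 9425474 in olfactory bulb controls 1 to 3, and 5552215, 3098215 and 2830746 in brainstem controls 1 to 3. The precursor of ribosomal RNA, Rn45s, took 2.14 to 2.93% of reads in olfactory bulb and 18.0 to 25.6% in brainstem, and its part in the differences was not tested. Levels below are normalised read counts, scaled jointly over the 6 libraries. All 36 core astrocyte markers had reads in each of the 6 libraries, with summed levels of 439285 to 514045 in olfactory bulb and 226003 to 563751 in brainstem. Within brainstem, library 2 had the highest astrocyte sum and the lowest choroid plexus sum, and library 1 the reverse, so that in library 1 the choroid plexus sum (338745) exceeded the astrocyte sum (226003).

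Transcripts of other cells were present as well, and they differed between the groups. The 19 choroid plexus markers summed to 2488 to 2950.3 in olfactory bulb and 70003 to 338745 in brainstem. The 20 oligodendrocyte markers summed to 9098 to 14972 and 48923 to 83322, the ependymal list to 254 to 334 and 645 to 1833, and the endothelial list to 2020.03 to 4320.1 and 5949.5 to 7079.5. In the opposite direction, the olfactory ensheathing list summed to 27694 to 33683 in olfactory bulb and 17753 to 22666 in brainstem, the olfactory sensory neuron list to 2023 to 2173 and 1052 to 1425, and the neuroblast list to 7432 to 8384 and 4494 to 7364. None of these 7 sums overlapped between the groups, whereas the microglial sums did, at 2899 to 6838 and 3054 to 5099.9. Of all genes tested below, 31.7% did not overlap either. Fabp7 alone gave 14372, 10741 and 12537 of the ensheathing sums in olfactory bulb and 335, 951 and 546 in brainstem. Lhx2 stands in the sensory neuron list and Meis2 in the neuroblast list, and both were higher in olfactory bulb (below). The neuroblast sums came close, at 7432 and 7364. With Fabp7, Lhx2 and Meis2 taken out of their lists, the ensheathing, sensory neuron and neuroblast sums no longer lay wholly above those of brainstem. No test of the lists without such genes was made. The part of other cell types in the results below was not tested. In bulk samples, fewer cells of a type and less RNA per cell cannot be told apart.

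**Figure D1:**
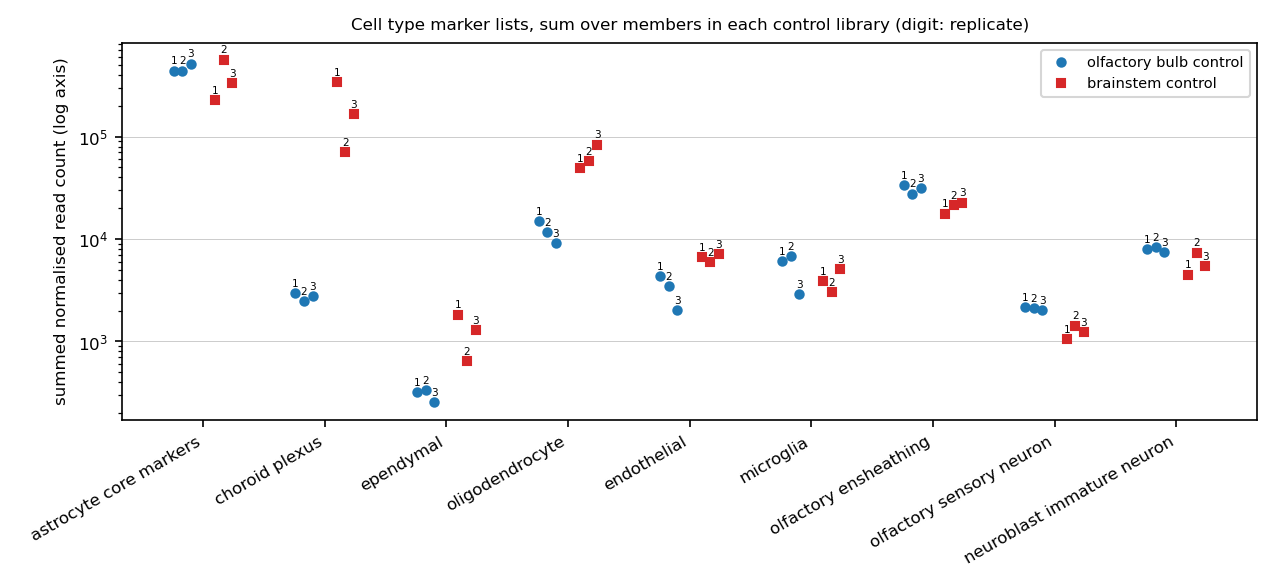
Summed normalised read count of each cell type marker list (log axis) in the 3 olfactory bulb and 3 brainstem control libraries; each point is 1 library and its digit the replicate. Choroid plexus sums run from 2488 to 2950.3 in olfactory bulb and from 70003 to 338745 in brainstem, while the astrocyte sums of the groups overlap.

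Of 11074 genes tested, 1346 (12.2%) differed between the regions at an adjusted p under 0.05 and an absolute log2 fold change above 1 (limma on log2 of the value plus 5). They divided evenly, with 668 (6.03%) higher in olfactory bulb and 678 (6.12%) higher in brainstem. These shares are the background for the counts of list members given below. Differences above 4-fold numbered 252 and 326, and above 16-fold 35 and 56. The median log2 fold change over all tested genes was 0.02. Scaled on the 36 astrocyte markers alone, an alternative added after the data were seen, the median moved to -0.23 and the calls to 348 in olfactory bulb and 565 in brainstem, so that 38.1% rather than 49.6% were higher in olfactory bulb. Fold changes below are log2 values, olfactory bulb minus brainstem, with the model's standard error. Values joined by "against" are those of olfactory bulb libraries 1 to 3 and then of brainstem libraries 1 to 3, and "rose" or "higher" is used of genes past both thresholds.

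Transcription factors that pattern the forebrain were mostly higher in olfactory bulb. Of 28 tested members of the list, 18 (64.3%) were higher in olfactory bulb and 2 (7.14%) in brainstem, with a median log2 fold change of 1.72. Lhx2, a LIM homeobox gene (chromosome 2, 38339281 to 38369733, plus strand, in mm10), stood at 923, 1095 and 1252 in olfactory bulb and at 1.85, 6.99 and 1.84 in brainstem (7.04 ± 0.31, adjusted p = 2.07e-07). Every olfactory bulb library lay far above every brainstem library.

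Nr2e1, the orphan nuclear receptor known as Tlx, was at 340.3, 345 and 443 against 4.63, 0 and 5.52 (5.57 ± 0.37, adjusted p = 4.31e-06). Sp8, a zinc finger factor of olfactory bulb interneuron lineages, was at 211, 243 and 238 against 1.85, 0 and 3.68 (5.14 ± 0.37, adjusted p = 6.79e-06). The interneuron homeobox gene Dlx1 was low, at 33.1, 41.4 and 24.1, and at 0 throughout brainstem, or at least 24.1-fold higher in olfactory bulb, taking 3 reads in the whole brainstem group as the limit. Limits of this kind scale with the depth of the group at 0, and would be 1.97 times lower without brainstem control 1, or 1.84 times lower without olfactory bulb control 3 where olfactory bulb is at 0. These were near-complete divisions, whereas Pax6 and Meis2 were graded. Pax6, a paired-box factor of forebrain progenitors, stood at 214, 328 and 279.99 against 54.6, 97.9 and 55.2, and the homeobox gene Meis2 at 771, 706 and 693 against 251, 245 and 252, both without overlap (1.94 and 1.52). Lhx2 also stands in the olfactory sensory neuron list, and Sp8, Dlx1 and Meis2 in the neuroblast list.

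The exceptions among forebrain factors were Otx2 and Nr2f1. Otx2, a head homeobox gene that choroid plexus epithelium also expresses, was at 34.98, 25.5 and 47.3 in olfactory bulb and 2152, 531 and 1069 in brainstem (-4.75 ± 0.41, adjusted p = 2.33e-05), and its brainstem values ranked as the choroid plexus sums did. Nr2f1, an orphan nuclear receptor known as COUP-TFI, was at 51.05, 44.2 and 87.03 against 125, 255 and 162 (-1.49 ± 0.34, adjusted p = 0.0115); without olfactory bulb control 2 it lost its call (adjusted p = 0.0622).

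**Figure D2:**
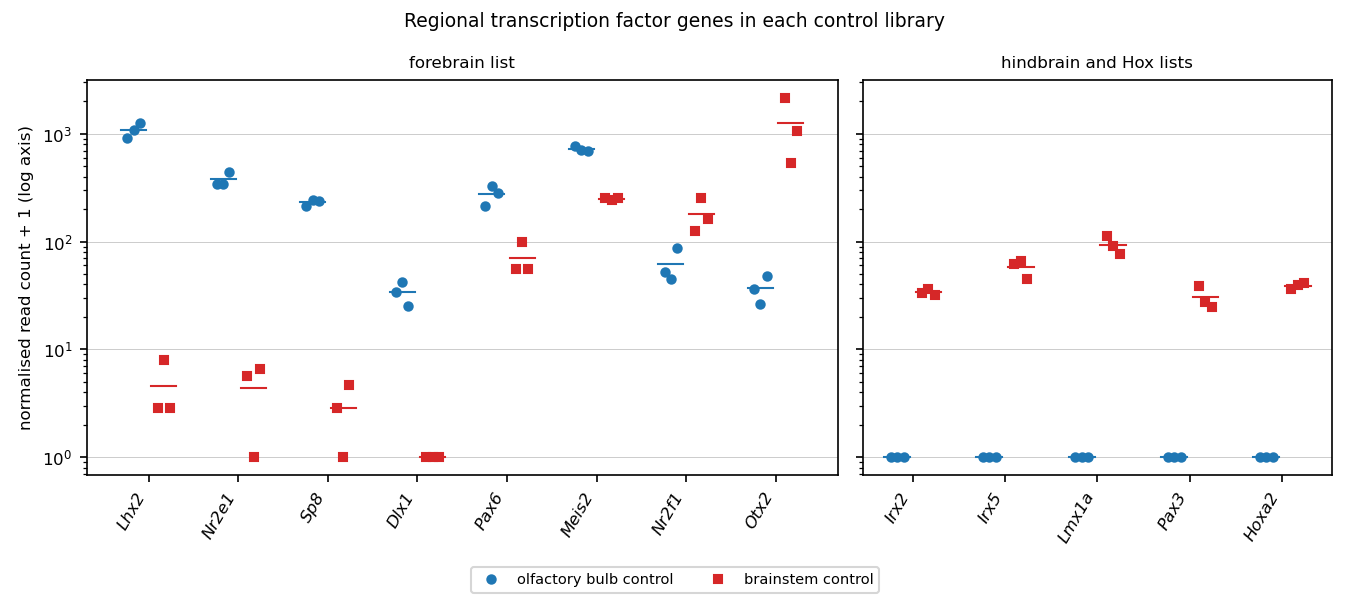
Normalised read count plus 1 (log axis) of forebrain, hindbrain and Hox genes in each of the 3 olfactory bulb and 3 brainstem control libraries; points are libraries and short lines group means. Irx2, Irx5, Lmx1a, Pax3 and Hoxa2 are at 0 in olfactory bulb, Dlx1 is at 0 in brainstem, and the groups overlap for none of the genes drawn.

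Hindbrain and midbrain factors that passed the test were higher in brainstem. Of 49 genes in this list, 11 were expressed enough to be tested, and 5 of these were higher in brainstem and 0 in olfactory bulb, with a median of -0.45. The Iroquois homeobox genes Irx2 and Irx5 stood at 32.4, 34.97 and 31.3 and at 61.1, 64.7 and 44.2 in brainstem. Lmx1a, a LIM homeobox gene of the roof plate and midbrain floor, stood at 113, 89.2 and 75.4, and Pax3, a paired-box gene of the dorsal neural tube, at 37.9, 26.2 and 23.9. All 4 were at 0 in every olfactory bulb library, so they were at least 50.6-fold, 87.3-fold, 142-fold and 45.2-fold higher in brainstem (adjusted p = 0.00194, 3.46e-04, 6.26e-05 and 0.00349 by limma).

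Hox genes, which give positional identity along the hindbrain and spinal cord, were nearly confined to brainstem in these 6 libraries. Hoxa2, the Hox gene expressed farthest forward in the hindbrain (chromosome 6, 52162417 to 52164831, minus strand), stood at 35.2, 38.5 and 40.5 in brainstem and at 0 in olfactory bulb, at least 58.6-fold higher (adjusted p = 0.00117). It was the 1 member of 39 with values high enough to be tested. Of the 39, 15 had reads in brainstem and 0 in all olfactory bulb libraries, 1 had reads in both, 0 had reads in olfactory bulb only, and 23 were at 0 in all 6. Hoxa2 had similar values in the 3 brainstem libraries, whose choroid plexus sums ran from 70003 to 338745. The cell type that gave its reads was not tested.

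Promoter sequence was examined for the homeodomain core TAATTA, a palindrome, because LIM and other homeodomain proteins such as those above recognise TAAT cores. RefSeq promoters (GRCm38.p6) were found for 501 of the 668 genes higher in olfactory bulb and 506 of the 678 higher in brainstem. Within the 250 bases before a start site, 28 (5.59%) and 27 (5.34%) of these genes held TAATTA, beside 266 of 8491 tested genes (3.13%) and 1527 of 27025 genes in the whole table (5.65%). The shares of both regional groups lay above that of the tested genes and close to that of the whole table, and no test of them was made. Shown are genes higher in olfactory bulb (the peptide gene Npy and the ephrin receptor gene Epha5) and in brainstem (Hoxa2 and Otx2), each as the 250 bases before the start on the gene's strand, with TAATTA in capitals. Otx2 has further start sites that are not shown. For Epha5 and Otx2 a window was printed only if it held TAATTA, so its presence there follows from that choice. The printed windows lie at chr6:49822460-49822709 (plus strand), chr5:84417383-84417632, chr6:52164832-52165081 and chr14:48667645-48667894 (minus strand for the last 3).
Npy: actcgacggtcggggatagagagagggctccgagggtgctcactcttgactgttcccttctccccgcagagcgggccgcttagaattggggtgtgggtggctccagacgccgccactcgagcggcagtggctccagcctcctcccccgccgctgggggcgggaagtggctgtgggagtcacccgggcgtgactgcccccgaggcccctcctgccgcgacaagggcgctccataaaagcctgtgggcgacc
Epha5: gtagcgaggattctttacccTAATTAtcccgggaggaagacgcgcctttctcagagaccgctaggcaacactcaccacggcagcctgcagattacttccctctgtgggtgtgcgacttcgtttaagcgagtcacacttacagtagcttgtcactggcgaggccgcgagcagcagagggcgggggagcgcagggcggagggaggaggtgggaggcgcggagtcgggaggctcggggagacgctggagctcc
Hoxa2: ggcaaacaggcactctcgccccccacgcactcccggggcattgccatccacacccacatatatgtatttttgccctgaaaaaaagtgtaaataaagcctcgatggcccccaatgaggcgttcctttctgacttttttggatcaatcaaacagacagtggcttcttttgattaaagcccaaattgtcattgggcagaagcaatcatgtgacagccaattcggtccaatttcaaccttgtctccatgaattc
Otx2: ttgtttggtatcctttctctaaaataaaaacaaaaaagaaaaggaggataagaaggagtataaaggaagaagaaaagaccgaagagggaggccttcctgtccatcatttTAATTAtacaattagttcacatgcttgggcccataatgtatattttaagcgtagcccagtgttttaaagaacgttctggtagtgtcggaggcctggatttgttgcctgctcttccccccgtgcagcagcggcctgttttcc
TAATTA began 230 bases before the start of Epha5 and 141 bases before that start of Otx2, and these letters were not in the windows of Npy and Hoxa2.

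The BMP and Wnt lists held genes higher in either region, secreted antagonists among them. Chrdl1, an astrocyte-secreted BMP antagonist known to mature synapses, had the largest positive change among the named genes. Chrdl1 (chromosome X, 143285674 to 143394262, minus strand) stood at 2506, 2376 and 2731 in olfactory bulb and at 4.63, 3.50 and 5.52 in brainstem (8.06 ± 0.22, adjusted p = 3.32e-09). The spread within either group was small beside this gap. In the BMP and TGF-beta list 5 of 30 tested members (16.7%) were higher in olfactory bulb and 1 (3.33%) in brainstem (median 0.34). All tested genes gave 6.03% and 6.12%. Bmper, a secreted BMP-binding protein, and Ltbp1, which binds latent TGF-beta, rose in olfactory bulb by 2.65 and 2.60, and Inhba, an activin subunit, by 1.67. The co-receptor gene Tgfbr3 was higher in brainstem (-2.84, and -3.50 without brainstem control 2). Inhba lost its call without olfactory bulb control 1 or 3 or brainstem control 3 (adjusted p up to 0.0924) and on the astrocyte-marker scale (0.0782).

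Of 35 tested Wnt pathway genes, 9 (25.7%) were higher in olfactory bulb and 4 (11.4%) in brainstem, or 2 in brainstem without its library 3 (median 0.32). Frzb, a secreted Wnt-binding protein, was at 667, 561 and 625 in olfactory bulb and 3.70, 0 and 1.84 in brainstem (6.54 ± 0.33, adjusted p = 5.12e-07), and it is also an olfactory ensheathing marker. Dkk3, a secreted Dickkopf family member, was at 747, 646 and 844 against 91.6, 94.4 and 47.8 (3.23 ± 0.26, adjusted p = 1.64e-05). Both genes separated the groups completely. Nkd2, an intracellular Wnt antagonist, and the R-spondin receptor gene Lgr5 rose by 3.30 and 1.97. Without brainstem control 3 the value of Nkd2 was 3.89. Higher in brainstem were the Frizzled receptor genes Fzd10 (-2.63) and Fzd4 (-1.28), the secreted antagonist Sfrp5 (-2.56) and the R-spondin receptor gene Lgr6 (-1.05). Of these, Fzd10 lost its call without brainstem control 3 (adjusted p = 0.0522), Fzd4 without olfactory bulb control 2 or brainstem control 1 (up to 0.0789), and Lgr6 in 4 of 6 such fits, being kept only without olfactory bulb control 2 or brainstem control 1 (up to 0.153). Lgr6 also lost it with no low-value filter (adjusted p = 0.0778) and with an added constant of 20, where its log2 fold change was -0.96.

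Of 14 tested retinoic acid genes 4 were higher in brainstem and 0 in olfactory bulb, with a median of -0.37. Cyp26b1, the enzyme that degrades retinoic acid (chromosome 6, 84571414 to 84593908, minus strand), was at 0, 0 and 1.89 in olfactory bulb and 385, 1149 and 684 in brainstem (-6.93 ± 0.41, adjusted p = 1.35e-06). Aldh1a1, which makes retinoic acid, was at 524, 483 and 542 against 2945, 6640.1 and 2758 (-2.86 ± 0.30, adjusted p = 6.50e-05). For both genes brainstem control 2, which had the lowest choroid plexus sum, had the highest value. The retinol dehydrogenase gene Rdh5 (-2.61) was highest in brainstem control 1 instead, the library with the highest choroid plexus sum.

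In the FGF, EGF, PDGF and IGF list 8 of 43 tested members (18.6%) were higher in olfactory bulb and 1 (2.33%) in brainstem. All tested genes gave 6.03% and 6.12%. The median of the list was 0.23, and -0.03 when scaled on astrocyte markers. Ptn, the secreted growth factor pleiotrophin, stood at 6851, 6389 and 7063 in olfactory bulb and 1157, 1717 and 1358 in brainstem (2.28 ± 0.22, adjusted p = 4.02e-05). Insulin-like growth factor Igf1 stood at 336, 465 and 402 against 77.7, 24.5 and 42.3 (3.05 ± 0.35, adjusted p = 1.33e-04). Neither gene overlapped between groups. The neuregulin receptor gene Erbb3 rose by 2.80 (3.42 without brainstem control 3) and the intracellular Fgf13 by 2.28. Igf2, which choroid plexus and meninges secrete, was higher in brainstem (-3.54, and -4.15 without brainstem control 2 or -2.94 without brainstem control 1).

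In the Notch list 4 of 17 tested members (23.5%) were higher in olfactory bulb and 1 (5.88%) in brainstem (median 0.32). All tested genes gave 6.03% and 6.12%. Hes5, a Notch target that maintains progenitors, stood at 150.3, 139 and 133 against 0.925, 24.5 and 25.8 (3.06 ± 0.56, adjusted p = 0.00300), with a value of 2.27 without brainstem control 1. The neuronal Notch ligand gene Dner (2.03), the target Hey2 (1.85) and the feedback regulator Nrarp (1.44) were higher in olfactory bulb, and the imprinted ligand gene Dlk1 in brainstem (-2.38). Nrarp lost its call without olfactory bulb control 2 or 3 or brainstem control 1 (adjusted p up to 0.0925) and on the astrocyte-marker scale (0.0627).

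Among 13 tested peptide and secreted-signal genes, 2 (15.4%) were higher in olfactory bulb and 1 (7.69%) in brainstem (median -0.07, and 0.54 without brainstem control 2). Npy, neuropeptide Y (chromosome 6, 49822710 to 49829507, plus strand), was at 815, 530.5 and 632 in olfactory bulb and 1.85, 1.75 and 1.84 in brainstem (6.58 ± 0.31, adjusted p = 3.12e-07). Cck, cholecystokinin, was at 113, 217 and 135 against 6.48, 5.24 and 16.6 (3.50 ± 0.41, adjusted p = 1.76e-04). Agt, angiotensinogen, ran the other way at 255, 155 and 241 against 617, 2044 and 1623 (-2.55 ± 0.37, adjusted p = 7.09e-04). The 3 genes separated the groups without overlap. Npy stands in the olfactory ensheathing and neuron lists and Cck in the neuron list.

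**Figure D3:**
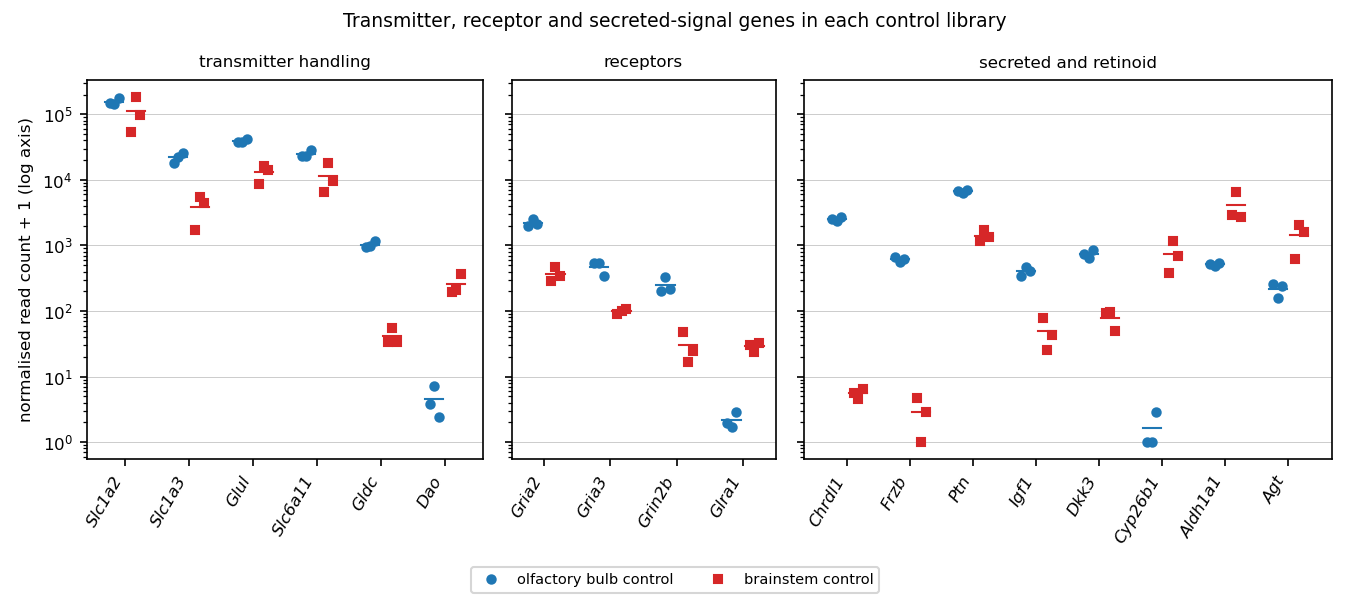
Normalised read count plus 1 (log axis) of transmitter-handling, receptor and secreted-signal genes in each of the 3 olfactory bulb and 3 brainstem control libraries; points are libraries and short lines group means. Chrdl1 and Gldc are higher in olfactory bulb, Dao and Cyp26b1 higher in brainstem, and the groups overlap for Slc1a2.

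Handling of glutamate and glycine differed by gene. Of 32 tested genes for glutamate, GABA and glycine, 10 were higher in olfactory bulb and 3 in brainstem (median 0.79); scaled on astrocyte markers the counts were 3 and 3, and the 10 became 6 without olfactory bulb control 2 or brainstem control 3 and 5 without brainstem control 1. Slc1a3, the glutamate transporter GLAST (chromosome 15, 8634124 to 8710764, minus strand), was at 18289.8, 22668 and 26036 in olfactory bulb and 1719, 5511 and 4495 in brainstem (2.66 ± 0.39, adjusted p = 7.24e-04). Slc1a2, the transporter GLT-1, was at 147582, 142216 and 175087 against 54358, 182329 and 99050.4 (0.63 ± 0.47, adjusted p = 0.435). Brainstem control 2 had the highest Slc1a2 value of the 6 libraries, so the groups overlapped, and without that library Slc1a2 passed as well (1.06, adjusted p = 0.0107).

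Glutamine synthetase, Glul, was at 38468, 37197 and 42436 against 8651, 16322 and 14034 (1.65 ± 0.31, adjusted p = 0.00384). Enzymes that degrade glycine and D-amino acids stood in opposite regions. Gldc, the glycine decarboxylase of the glycine cleavage system (chromosome 19, 30098447 to 30175429, minus strand), was at 943, 964 and 1153 in olfactory bulb and 32.4, 54.2 and 33.1 in brainstem (4.54 ± 0.24, adjusted p = 6.39e-07). Dao, D-amino acid oxidase, which degrades D-serine (chromosome 5, 114003703 to 114025682, plus strand), was at 2.84, 6.21 and 1.42 against 195, 212 and 361 (-4.93 ± 0.39, adjusted p = 1.23e-05). Each gene was well apart in all libraries. The GABA transporter gene Slc6a11 had a log2 fold change of 1.24 (adjusted p = 0.0390 by limma), and the aspartate aminotransferase gene Got2 was higher in brainstem (-1.44). Slc6a11 kept its call in 1 of 6 fits with 1 library left out, that without brainstem control 2 (adjusted p up to 0.173). It also lost it with edgeR (adjusted p = 0.0742), with no low-value filter (0.0549) and on the astrocyte-marker scale, where its log2 fold change was 0.97. Got2 lost its call without olfactory bulb control 2 or brainstem control 3 (adjusted p up to 0.0684).

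Of 44 tested transmitter receptor genes, 12 (27.3%) were higher in olfactory bulb and 7 (15.9%) in brainstem (median 0.62). On the astrocyte-marker scale the counts were 6 and 7, and the 7 of the main fit became 4 without brainstem control 3. The AMPA receptor subunit genes Gria2 and Gria3 were higher in olfactory bulb, Gria2 at 2009.7, 2572 and 2117 against 289.6, 470.3 and 346 (2.60 ± 0.21, adjusted p = 1.52e-05) and Gria3 with 2.18. The NMDA subunit gene Grin2b (2.97) and the GABA-A subunit gene Gabrg3 (2.32) were also higher there. Glra1, the adult glycine receptor subunit of brainstem and spinal cord, was at 0.945, 0.690 and 1.89 in olfactory bulb and 29.6, 22.7 and 31.3 in brainstem (-2.41 ± 0.50, adjusted p = 0.00664). Grik4, a kainate receptor subunit gene (-1.74), and the beta-1 adrenergic receptor gene Adrb1 (-1.90) were higher in brainstem. The serotonin receptor gene Htr2c, abundant in choroid plexus, was at 1473, 318 and 622 in brainstem and 2.84, 11.7 and 2.84 in olfactory bulb (-6.05, and -6.67 without brainstem control 2). Adrb1 lost its call without olfactory bulb control 1 or brainstem control 3 (adjusted p up to 0.0743).

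Most core astrocyte genes did not pass the test. Of 36 markers 6 (16.7%) were higher in olfactory bulb, a share above the 6.03% of all tested genes. In brainstem 0 were higher, and 30 did not pass (median 0.33). Scaled on these markers themselves, the median was 0.06, and 5 and 1 passed. Aldh1l1, whose regulatory sequence drives the sorting reporter, was at 848, 824 and 843 against 549, 1096 and 574 (0.25 ± 0.25, adjusted p = 0.568). The water channel gene Aqp4 (-0.07), the connexin gene Gja1 (0.56), the glial factor Sox9 (-0.01) and the calcium-binding protein gene S100b (-0.51) did not pass either. Among those that passed, Cspg5, a neuroglycan, was at 717, 878 and 937 against 86.97, 243 and 158 (2.44 ± 0.31, adjusted p = 2.59e-04). Apoe, the lipid carrier apolipoprotein E, had a difference of 1.26, but it kept its call in 1 of 6 fits with 1 library left out, that without brainstem control 2 (adjusted p up to 0.0928), and lost it on the astrocyte-marker scale, where its log2 fold change was 1.00.

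The nuclear factor I genes, which drive astrocyte formation, did not pass the test in any case. Nfia, floxed in all these mice, was at 3452, 3885 and 4321 in olfactory bulb and 2864, 5163 and 3893 in brainstem (0.00 ± 0.25, adjusted p = 0.996). Nfib was at 1535, 1751 and 2038 against 1402, 2203 and 1764 (0.00 ± 0.22, adjusted p = 0.996), and Nfic and Nfix had differences of -0.47 and -0.12 (adjusted p = 0.129 and 0.763 by limma). For Nfia and Nfib, brainstem control 2 had the highest value and brainstem control 1 the lowest, on both sides of the olfactory bulb values.

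Filament and reactive-state genes were higher in olfactory bulb in 6 of 22 tested cases (27.3%) and in brainstem in 1 (4.55%), with a median of 0.36. Gfap, the glial intermediate filament, was at 3506, 2768 and 2916 against 1021, 1553 and 1247 (1.28 ± 0.21, adjusted p = 0.00171). Vim, the filament vimentin, was at 1161, 924 and 986 against 197, 154 and 401 (2.12 ± 0.30, adjusted p = 5.40e-04). The groups were separate for both. The complement gene C4b and the protease inhibitor gene Serpina3n, both raised in reactive astrocytes, had differences of 2.16 and 2.12. Fabp7, the brain fatty acid-binding protein of radial glia and also an ensheathing cell marker, was at 14372, 10741 and 12537 in olfactory bulb and 335, 951 and 546 in brainstem (4.47 ± 0.32, adjusted p = 6.55e-06). Dmrta2, a forebrain factor in the astrocyte transcription factor list, was at 21.7, 26.9 and 41.1 and at 0 in brainstem, at least 21.9-fold higher; in that list 8 of 34 tested members were higher in olfactory bulb and 0 in brainstem (median 0.39), or 5 on the astrocyte-marker scale.

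Channels and hormone-handling genes split in both directions. Of 38 tested potassium, water and gap junction genes, 6 were higher in each region (median 0.10, but -0.16 on the astrocyte-marker scale and -0.11 without brainstem control 1). The background potassium channel gene Kcnk2 was at 562, 792 and 691 in olfactory bulb and 33.3, 52.4 and 75.4 in brainstem (3.60 ± 0.28, adjusted p = 1.23e-05). The A-type channel gene Kcnd3 (2.38), the chloride channel gene Clcn2 (2.14) and the G protein-gated channel gene Kcnj3 (2.05) shared that direction. The M-current gene Kcnq3 was at 6.62, 25.5 and 8.99 against 121, 191 and 114 (-3.07 ± 0.43, adjusted p = 5.43e-04). Kcnk10 (-2.29), the cotransporter gene Slc12a2 (-1.96) and the cation channel gene Trpv4 (-3.82, and -3.07 without brainstem control 1 or -4.49 without brainstem control 2) were likewise higher in brainstem, and the last 2 are known in choroid plexus epithelium.

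In the thyroid, glucocorticoid and purine list 1 of 19 tested members (5.26%) was higher in olfactory bulb and 6 (31.6%) in brainstem (median -0.13). Dio2, the deiodinase that activates thyroid hormone, was at 4789, 4431 and 5721 in olfactory bulb and 743, 1423 and 849.98 in brainstem (2.35 ± 0.25, adjusted p = 9.50e-05). Hsd11b1, which regenerates active glucocorticoid, was at 114, 62.8 and 113 against 528, 745 and 557 (-2.63 ± 0.26, adjusted p = 5.41e-05). Neither overlapped between groups. The glucocorticoid-induced kinase gene Sgk1 (-3.08) was higher in brainstem and highest in its library 1.

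Of 53 tested axon guidance genes, 14 (26.4%) were higher in olfactory bulb, 4 (7.55%) were higher in brainstem and 35 did not pass (median 0.46). The 14 became 9 on the astrocyte-marker scale, with a median of 0.08, and the 4 became 2 without olfactory bulb control 3. Epha5, an ephrin receptor gene whose promoter is printed above, was at 639, 1024 and 678 against 29.6, 99.7 and 66.2 (3.59 ± 0.36, adjusted p = 5.53e-05). Sema5a, a transmembrane semaphorin gene, was at 2797, 2541 and 2142 against 180.4, 288 and 302 (3.28 ± 0.22, adjusted p = 4.32e-06). Slit2, the repellent ligand of Robo receptors, was at 17.02, 46.9 and 17.03 in olfactory bulb and 986, 379 and 506 in brainstem (-4.31 ± 0.41, adjusted p = 4.17e-05). These 3 genes separated the groups widely. Sema5b (3.81) and the plexin gene Plxnc1 (at 351, 407 and 508 against 29.6, 117 and 29.4, adjusted p = 6.05e-04 by limma) were higher in olfactory bulb, with log2 fold changes of 4.56 and 3.63 without brainstem control 2. Higher in brainstem were Sema3b (-4.12), the netrin receptor gene Unc5b (-2.06) and the semaphorin co-receptor gene Nrp2 (-1.27). Unc5b lost its call without olfactory bulb control 2 or 3 or brainstem control 3 (adjusted p up to 0.0833), and Nrp2 without olfactory bulb control 1 or 3 or brainstem control 1 (up to 0.0991) or on the astrocyte-marker scale (0.0579).

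Of 59 tested adhesion genes, 19 (32.2%) were higher in olfactory bulb and 6 (10.2%) in brainstem (median 0.52). On the astrocyte-marker scale the counts were 10 and 8. The 19 became 10 without olfactory bulb control 2 or 3 and 12 without brainstem control 1. Cdh4, or R-cadherin, was at 695, 731 and 753 against 4.63, 5.24 and 31.3 (5.58 ± 0.44, adjusted p = 1.23e-05), and 6.29 without brainstem control 3. Flrt2, a leucine-rich adhesion protein gene, was at 45.4, 64.2 and 35.9 against 551, 568 and 482 (-3.36 ± 0.25, adjusted p = 7.95e-06). The protocadherin gene Pcdh20 (3.70, and 4.35 without brainstem control 2) and the synaptic adhesion genes Lrrtm3 (2.83) and Lrrtm4 (2.70) were higher in olfactory bulb. Lrrtm4 lost its call without olfactory bulb control 2 (adjusted p = 0.0672) and with voom (0.0508). The teneurin gene Tenm4 (-2.44) and the axonal adhesion genes Cntn2 (-2.12) and Nfasc (-1.89) were higher in brainstem, and oligodendrocytes express the last 2 as well.

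Of 51 tested matrix genes, 10 (19.6%) were higher in olfactory bulb and 8 (15.7%) in brainstem (median 0.08, and -0.19 on the astrocyte-marker scale). Hapln1, a link protein that anchors hyaluronan to proteoglycans, was at 575, 788 and 870.3 in olfactory bulb and 36.1, 26.2 and 9.20 in brainstem (4.81 ± 0.37, adjusted p = 9.17e-06). Its relative Hapln2, which marks nodes of Ranvier and oligodendrocytes, was at 0.945, 0.690 and 0.946 against 42.6, 24.5 and 109 (-3.21 ± 0.57, adjusted p = 0.00237). The 2 link proteins thus stood in opposite regions. The collagen gene Col11a1 (3.11), the fibulin gene Fbln2 (3.10) and tenascin C, Tnc (2.98, and 3.64 without brainstem control 3), were higher in olfactory bulb. Col8a1 (-4.62, and -3.89 without brainstem control 1), the laminin gene Lamb1 (-2.49) and the fibroblast collagen gene Col1a2 (-2.25) were higher in brainstem. In the list of secreted and engulfment proteins that act on synapses, 6 of 27 tested members were higher in olfactory bulb and 2 in brainstem (median 0.42), among them the engulfment receptor gene Mertk (1.51) and, in brainstem, the secreted synaptic protein gene Lgi1 (-2.85).

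**Figure D4:**
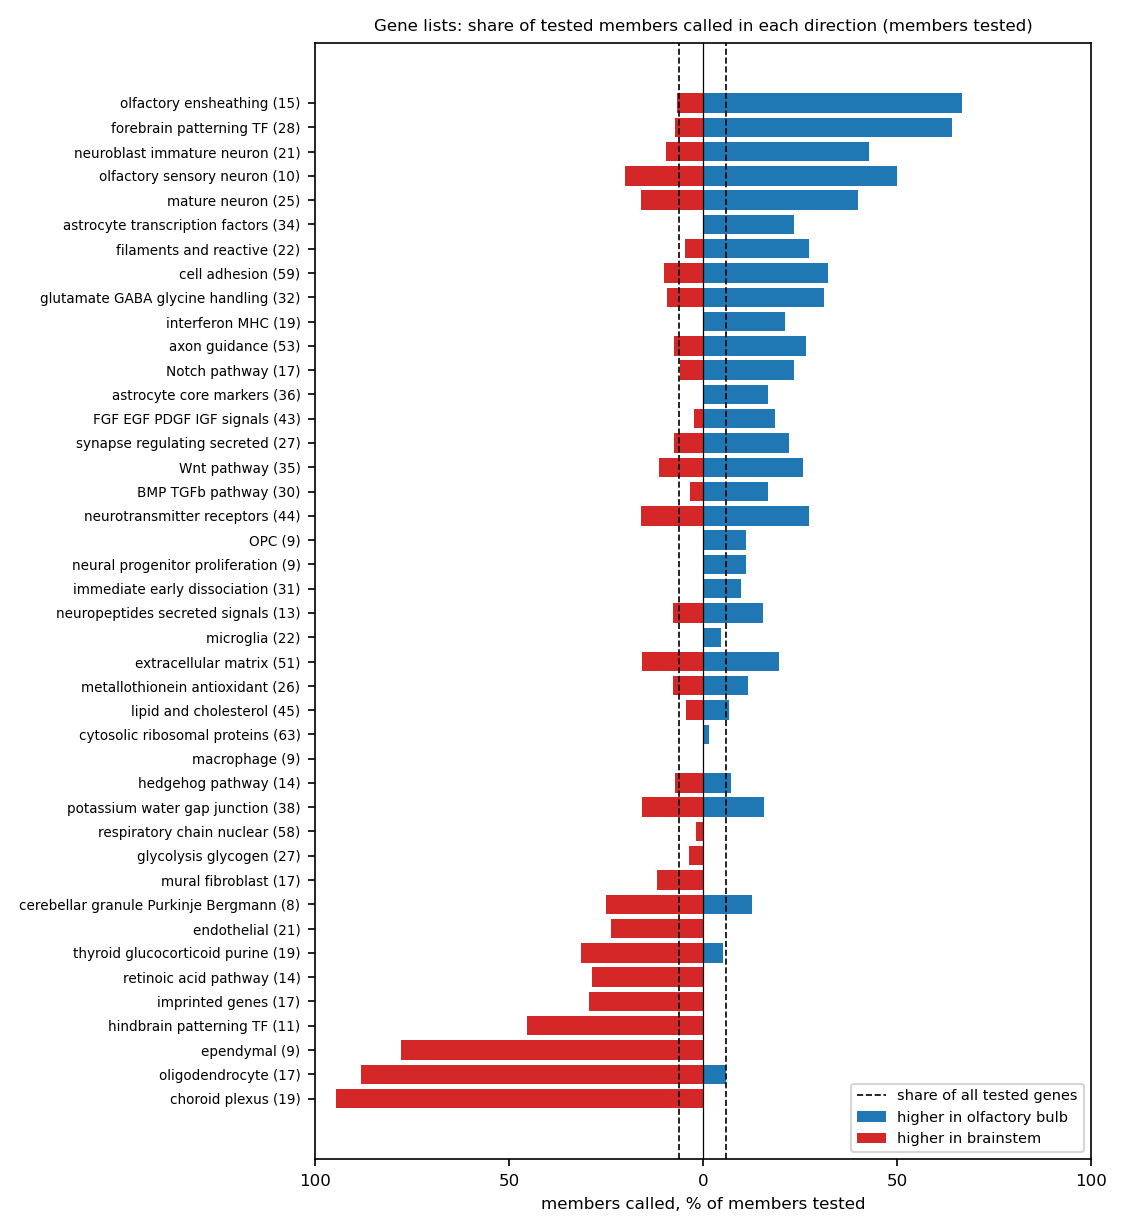
Share of the tested members of each gene list called higher in olfactory bulb (right) or in brainstem (left), in percent; the number in brackets is the members tested and dashed lines are the shares over all tested genes, 6.03% and 6.12%. Choroid plexus, oligodendrocyte and ependymal lists lie farthest to the brainstem side and olfactory ensheathing and forebrain lists farthest to the olfactory bulb side; lists with fewer than 8 tested members are not drawn.

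Genes of other cell types gave the largest differences toward brainstem. Of 19 choroid plexus markers 18 were higher in brainstem and 0 in olfactory bulb (median -5.26). Ttr, the thyroid hormone carrier transthyretin, was at 5.67, 14.5 and 4.73 in olfactory bulb and 195301, 40472 and 94628 in brainstem (-12.81 ± 0.46, adjusted p = 3.08e-08). The bicarbonate cotransporter gene Slc4a5 was at 2349, 584 and 849.98 in brainstem and at 0 in olfactory bulb, at least 1943-fold higher, and so were Tmem72 and Prr32, at least 617-fold and 536-fold. Without brainstem control 1 the limits of Slc4a5 and Tmem72 were 1105-fold and 375-fold. Klotho (Kl, -8.22), the prolactin receptor gene Prlr (-7.76), Kcne2 (-6.78), the BMP antagonist gene Sostdc1 (-6.51), Clic6 (-6.35), the ciliary gene Drc7 (-5.79) and the autotaxin gene Enpp2 (-4.50) had the same direction. With Htr2c and Cyp26b1 above, and leaving out Enpp2, these are the 12 named genes with the steepest differences toward brainstem. In most of these genes brainstem control 1 was highest and brainstem control 2 lowest; without the latter Ttr had a value of -13.47, Kl -8.86, Slc4a5 -8.32, Kcne2 -7.47, Sostdc1 -7.51, Tmem72 -6.85, Prr32 -6.63, Drc7 -6.44, Enpp2 -5.11 and Prlr -8.35. Without brainstem control 1 Prlr had -6.95, Slc4a5 -7.13, Sostdc1 -5.85 and Tmem72 -5.44, and without olfactory bulb control 2 Prlr had -8.37. Enpp2 lost its call on the astrocyte-marker scale (adjusted p = 0.0624 by limma).

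Oligodendrocyte markers were higher in brainstem in 15 of 17 tested cases and in olfactory bulb in 1 (median -2.35). Mbp, myelin basic protein, was at 7226, 5769 and 3377 in olfactory bulb and 32983, 39370.4 and 57315 in brainstem (-3.01 ± 0.34, adjusted p = 1.33e-04). Mobp, another myelin protein gene, had -2.80, the protease gene Klk6 -3.53 and Ermn -3.59 (-3.01 without olfactory bulb control 3). In brainstem, Mbp was highest in library 3, unlike the choroid plexus genes. Of 9 tested ependymal genes 7 were higher in brainstem (median -2.10). The ciliary genes Ak7 (at least 89.9-fold, at 0 in olfactory bulb), Cfap126 (-2.97) and Rsph4a (-3.86, and -4.72 without brainstem control 2 or -3.23 without brainstem control 1) were among them, with Foxj1, the regulator of motile cilia (-2.10), which lost its call without olfactory bulb control 3 or brainstem control 3 (adjusted p up to 0.0792) and had -2.69 without brainstem control 2.

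Endothelial markers were higher in brainstem in 5 of 21 tested cases, with 0 in olfactory bulb (median -1.03). The tight junction gene Ocln had -2.65, the endothelial factor gene Erg -2.16, the organic anion transporter gene Slco1a4 -1.72 and the glucose transporter gene Slc2a1 -1.36. The last 3 were sensitive to single libraries. Erg lost its call without olfactory bulb control 2 or 3 or brainstem control 3 (adjusted p up to 0.0715) and with edgeR (0.0537), and had -2.75 without olfactory bulb control 1; Slco1a4 lost it without brainstem control 3 (adjusted p = 0.0763) or with all 24 libraries in the fit (0.115), and Slc2a1 without olfactory bulb control 3 or brainstem control 3 (up to 0.0690); the 5 called endothelial markers became 8 without olfactory bulb control 1, 2 without its library 3 and 1 without brainstem control 3.

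Lists of olfactory cell types also held genes higher in olfactory bulb, Fabp7 and Lhx2 among them. Of 15 tested olfactory ensheathing markers 10 were higher in olfactory bulb and 1 in brainstem (median 1.76), and 6 rather than 10 passed on the astrocyte-marker scale or without olfactory bulb control 2. Of 10 tested olfactory sensory neuron markers 5 were higher in olfactory bulb and 2 in brainstem (median 1.26, and 0.00 on the astrocyte-marker scale). Omp, the olfactory marker protein, was at 208, 116 and 86.6 in olfactory bulb, Stoml3, a stomatin-like protein gene of sensory cilia, at 97.4, 85.5 and 91.8, and S100a5 at 128, 57.9 and 36.9. All 3 were at 0 in brainstem, so they were at least 100.2-fold, 67.03-fold and 54.3-fold higher in olfactory bulb, the last 34.7-fold without olfactory bulb control 1. The ensheathing marker Mybpc1 was at 267, 204 and 173 against 1.85, 0 and 105 (3.80 ± 0.89, adjusted p = 0.0137). Its call was kept without olfactory bulb control 3 or brainstem control 3 and lost in the other 4 fits with 1 library left out (adjusted p up to 0.0924). The values were 3.19, 3.03 and 5.36 without brainstem control 1, 2 or 3. The count models did not call it (adjusted p = 0.108 with edgeR and 0.414 with DESeq2), nor did the astrocyte-marker scale (0.0605).

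Neuronal genes went both ways. Of 21 tested neuroblast genes 9 were higher in olfactory bulb and 2 in brainstem (median 0.74), and of 25 tested mature neuron genes 10 and 4 (median 0.52), the 10 becoming 6 without olfactory bulb control 2. Dcx, doublecortin of migrating neuroblasts, was at 361, 317 and 236 in olfactory bulb and 8.33, 13.99 and 29.4 in brainstem (3.89 ± 0.37, adjusted p = 4.53e-05). Gad1, the GABA-synthesising enzyme of interneurons, was at 412, 315 and 264 against 59.2, 24.5 and 18.4 (3.22 ± 0.37, adjusted p = 1.45e-04). Camk2a, the kinase of excitatory neurons, had a difference of 4.37 (3.67 without brainstem control 2 and 4.97 without brainstem control 3). Cdhr1, a cadherin of mitral and tufted cells, was at 123, 412 and 109.7 in olfactory bulb and at 0 in brainstem, at least 157-fold higher, or 85.2-fold without olfactory bulb control 2, the highest library. In contrast, the neurofilament genes of large projection axons were higher in brainstem, with Nefl at 32.1, 27.6 and 28.4 against 417, 271 and 429 (-3.43 ± 0.27, adjusted p = 1.23e-05), Nefm -3.58 and Nefh -4.13. Of 22 microglial genes 1 (4.55%) was higher in olfactory bulb and 0 in brainstem, with 3 higher without olfactory bulb control 3. The 1 was P2ry12 (1.18), which lost its call without olfactory bulb control 1 or 2 or brainstem control 1 (adjusted p up to 0.103), with voom (0.0510) and on the astrocyte-marker scale (0.224).

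Several general lists had at most 3 calls in a direction. As shares of tested members these reached 11.5% toward olfactory bulb and 7.69% toward brainstem, both in the metallothionein and antioxidant list. The shares over all tested genes were 6.03% and 6.12%. Of 63 tested cytosolic ribosomal protein genes 1 was higher in olfactory bulb (Rpl29, 1.06; lost without olfactory bulb control 1 or 2 or brainstem control 3, adjusted p up to 0.0953, and on the astrocyte-marker scale, 0.282) and 0 in brainstem, although the median was 0.37. Of 58 nuclear respiratory chain genes 0 were higher in olfactory bulb and 1 in brainstem (Atp5g1, -1.35; median -0.01). Of 45 lipid and cholesterol genes 3 and 2 passed (median 0.12). The 3 became 8 without brainstem control 2 and 1 without olfactory bulb control 1 or 3 or on the astrocyte-marker scale, where the median was -0.15, and without brainstem control 1 the median was -0.02. Of 27 glycolysis and glycogen genes 0 and 1 passed (median -0.29), and of 14 hedgehog pathway genes 1 and 1 (median -0.09, but 0.16 without brainstem control 2 and 0.04 without olfactory bulb control 1). Metallothionein and antioxidant genes gave 3 and 2 of 26 (median -0.05), the 3 becoming 5 without brainstem control 2, and medians of 0.01 and 0.02 without olfactory bulb control 2 or 3. Dissociation-response genes gave 3 and 0 of 31 (median 0.19), but 3 and 4 with a median of -0.43 without brainstem control 2. Their median was -0.11 without olfactory bulb control 1 and -0.12 on the astrocyte-marker scale, where 0 passed in either direction. The respiratory chain median lay between -0.28 and 0.06 over the scalings and the fits with 1 library left out. In every list but the dissociation-response one, a count of 0 to 2 calls in a direction moved by at most 2 under those same settings.

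The hippocampus and cortex controls were set beside the pair, as values scaled jointly over the 12 control libraries. Of the 668 genes higher in olfactory bulb, 352 (52.7%) had all 6 hippocampal and cortical values below all olfactory bulb values, and 249 (37.3%) had them all above the brainstem values. Those shares were 8.15% and 6.28% over all tested genes, and they rise with any difference between the pair. Npy (means of 4.49 in hippocampus and 10.7 in cortex) and Frzb (12.8 and 15.5) were among the former, and Lhx2 (1333 and 1774), Nr2e1 (619 and 836) and Gldc (799 and 753) among the latter. Of the 678 genes higher in brainstem, 218 (32.2%) had all hippocampal and cortical values below all brainstem values, and 202 (29.8%) had them all above the olfactory bulb values, against 5.63% and 5.72% over all tested genes. Dao and Hoxa2 were at 0 in all 6 hippocampal and cortical libraries, and Cyp26b1 averaged 37.3 and 10.97, whereas Ttr averaged 93855 and 19207.

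The same regional contrast was fitted in the 6 libraries labelled knockout, which share no sample with the controls and were scaled by themselves. Nfia itself was at 4983, 5298 and 5744 in olfactory bulb and 6599.8, 6871 and 5788 in brainstem libraries labelled knockout. Of 10194 genes tested there, 1111 (10.9%) passed, 536 (5.26%) higher in olfactory bulb and 575 (5.64%) in brainstem. Genes passing in both sets with the same direction numbered 722, which is 53.6% of the control calls and 65.0% of the calls in knockout-labelled libraries, and 0 passed with opposite directions. Of the 1167 control calls that could be tested, 1149 (98.5%) had the same sign and 1044 (89.5%) separated the groups the same way, beside 33% of all tested genes that separated the groups in either direction. Lhx2 (6.90), Chrdl1 (6.72), Gldc (4.32), Dao (-4.63) and Cyp26b1 (-6.48) passed there too, with log2 fold changes near those of the controls or somewhat smaller.

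Some control calls did not pass there. Gfap had -0.29 in the libraries labelled knockout against 1.28 in controls, Dio2 0.70 against 2.35, and Meis2 0.71 against 1.52 (adjusted p = 0.493, 0.00135 and 0.0476 by limma in the former). Dlk1 had 1.39 against -2.38 (adjusted p = 0.259 by limma in the former). Its groups overlapped in the libraries labelled knockout, with means of 47.1 in olfactory bulb and 22.8 in brainstem. Whether the regional difference itself differed between genotypes was not tested. Choroid plexus sums in brainstem libraries labelled knockout were 6046 to 96764, lower than or within the control range. Rn45s took 3.33, 2.55 and 20.8% of reads in olfactory bulb libraries 1 to 3 labelled knockout. In the brainstem libraries labelled knockout it took 19.6, 13.5 and 21.1%.

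**Figure D5:**
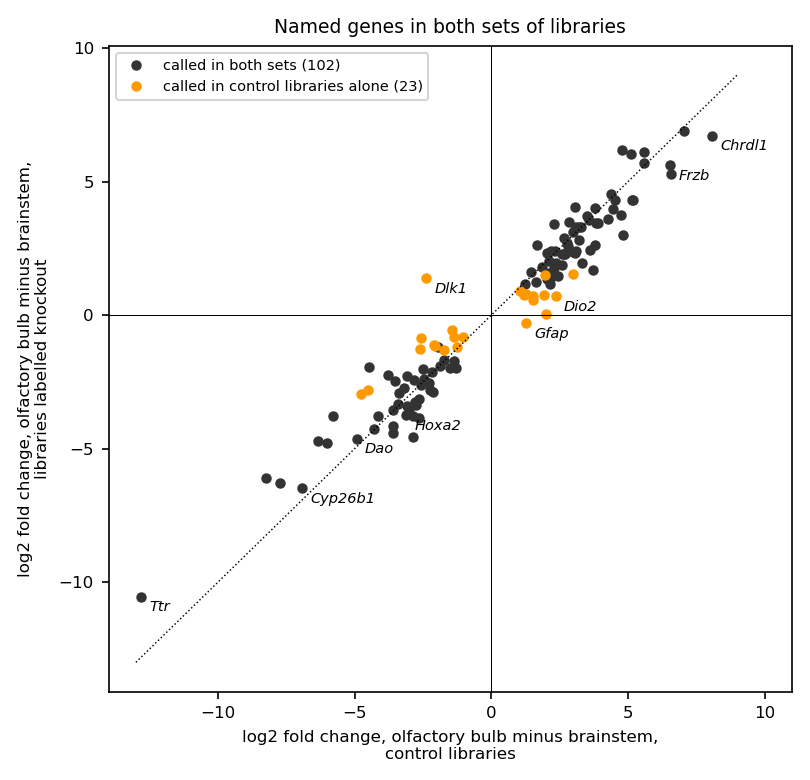
Log2 fold change of olfactory bulb minus brainstem for the 125 named genes called in controls and tested in both sets, in control libraries (horizontal axis) and in libraries labelled knockout (vertical axis); the dotted line marks equal values and each point is 1 gene. Of these, 102 passed in both sets, 23 in controls alone, and 123 had the same sign, with Gfap and Dlk1 the exceptions.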

How the data were processed

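Sorted-astrocyte RNA was sequenced in 24 libraries, of which the 6 olfactory bulb and brainstem controls are compared here; the 6 libraries labelled knockout of the same regions were fitted separately. The authors deposited normalised signal per gene name, 1 table per library. FastQC, STAR 2.5.0a, DESeq2 1.20.0 and mm10 are listed per the submitters' processing notes without roles; a counting tool and annotation are not given in the sources used here. Every value was a whole read count divided by 1 factor per library (100% of values within 0.01 read), so reads were recovered. Of 24421 rows, 27 with date-like names were left out (at most 0.235% of reads), leaving 24394, of which 23350 matched GENCODE vM21 symbols. Mitochondrially encoded genes are not analysed here.

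Reads were rescaled by median-of-ratios factors over the 6 libraries. Genes at 20 or more in at least 3 libraries were tested in limma 3.58.1 (R 4.3.3) on log2 of the value plus 5, with trend and robust moderation, 4 residual degrees of freedom, two-sided, with Benjamini-Hochberg adjustment; called genes have adjusted p under 0.05 and absolute log2 fold change above 1. Adding 5 understates changes of low genes. Paralogs and overlapping genes may share reads.

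Genes named were the 12 steepest per direction with a mean of at least 100 and no overlap, up to 4 called members per direction of each list described, the 2 of smallest p where none was called, NFI and core astrocyte genes, tested Hox genes, and the most abundant markers; the text gives part of these, and some genes are not reported here. The members and the 43 lists were chosen with earlier results of these data known. Alternatives were other scalings, constants, filters and thresholds, edgeR 4.0.16, DESeq2 1.42.0, voom, thinned reads, all 24 libraries, replicate blocks and single libraries left out. The script was tested on simulated data.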

Additional observations from a re-analysis of the deposited data

Results flagged for a closer look

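Tmem100, a transmembrane protein gene of endothelium and some astrocytes, stood higher in every olfactory bulb control library than in any brainstem control library (121, 188 and 214 against 101, 108 and 101), with a log2 fold change of 0.69 that did not pass the test (adjusted p = 0.111 by limma). In the libraries labelled knockout the order was the opposite, 73.4, 84.4 and 104 against 110, 170.1 and 163, with -0.72 (adjusted p = 0.0851 by limma). The difference between the genotypes was not tested. Over all genes tested in both sets, 38 separated the groups in opposite directions. In either direction, 31.7% of tested genes separated the groups in controls and 33% in libraries labelled knockout. How many would do so in opposite directions by the order of libraries alone was not tested.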

How the results depend on the processing

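The count of 1346 called genes in controls was 815 with a filter of 100 in 3 libraries and 578 at a log2 threshold of 2; in libraries labelled knockout the count of 1111 was 621, 421 and, with reads thinned to the shallowest library, 681. The filter tests fewer genes and the threshold asks for larger changes. Thinning in the knockout-labelled set went down to the depth of its brainstem library 3, which had 1090777 reads. It left 6399 rather than 10194 genes to test, and the cause of the loss of calls was not tested. Leaving out 1 library gave 986 to 1701 calls in controls and 851 to 1208 in libraries labelled knockout. In controls the count was 1260 with edgeR, 1521 with DESeq2, 1507 with voom and 913 when scaled on astrocyte markers, of which 874 were among the 1346. With a replicate block the counts were 1318 and 1079, and 1 named gene, Slc6a11, lost its call (adjusted p = 0.0583 by limma). Deviations of same-numbered libraries had correlations of 0.046, -0.052 and -0.142 in controls. In libraries labelled knockout the correlations were -0.011, -0.033 and -0.050, and not every library correlated best with its own number. With 3 libraries per group these values cannot decide whether same-numbered libraries share an animal or a preparation. Of 143 named genes called, 123 kept their call in all 6 fits with 1 library left out and 20 lost it in at least 1; none of these 143 changed sign under an alternative that gave it a value. Of the 11 named genes not called, 6 changed sign under at least 1 (Aldh1l1, Aqp4, Nfia, Nfib, Nfix and Sox9, with reported differences of -0.12 to 0.25). The filter of 100 gave values for 114 of the 154 and thinning for 142. Scaling on astrocyte markers ended the calls of 10 named genes, including Enpp2 (adjusted p = 0.0624) and Ifit1 (0.0530). With 2830746 to 5552215 reads in brainstem, genes at a few reads there are known only coarsely. The limits for groups at 0 cover counting error only, whereas the standard errors measure the spread between libraries.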

Other observations

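Imprinted genes, expressed from 1 parental copy, were higher in brainstem in 5 of 17 tested cases and in olfactory bulb in 0 (median -0.07). Cdkn1c, a growth-restraining cell cycle inhibitor, was at 11.3, 0.690 and 14.7 in olfactory bulb and 437, 133 and 335 in brainstem (-4.49 ± 0.54, adjusted p = 1.90e-04), and -3.90 without olfactory bulb control 2. Plagl1, a zinc finger gene, was at 15.1, 31.7 and 21.8 against 712, 198 and 359 (-3.79 ± 0.42, adjusted p = 1.17e-04). Igf2 and Dlk1 are described above. Cdkn1c and Plagl1 were highest in brainstem control 1 and lowest in brainstem control 2, the order of the choroid plexus sums, and the part of that tissue was not tested.

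Interferon and MHC genes were higher in olfactory bulb in 4 of 19 tested cases and in brainstem in 0 (median 0.64), and 0 passed in either direction on the astrocyte-marker scale. Without olfactory bulb control 1 or 2, or brainstem control 1 or 3, 1 of them passed. Ifit1, an interferon-induced antiviral gene, was at 286, 114 and 87.5 against 24.1, 27.97 and 47.8 (1.99 ± 0.43, adjusted p = 0.00882), and olfactory bulb control 1 was the highest; the call was lost with voom (adjusted p = 0.0757) and on the astrocyte-marker scale (0.0530). Clca3a1, a secreted chloride channel regulator, was at 539, 337 and 313 against 0, 10.5 and 12.9 (5.13 ± 0.47, adjusted p = 3.39e-05), and 4.54 without brainstem control 1. Tex15, known from male germ cells, was at 181, 203 and 221 in olfactory bulb and 7.40, 1.75 and 0 in brainstem (4.78 ± 0.42, adjusted p = 2.33e-05), and at 0 and 5.77 on average in hippocampus and cortex.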
